A study of Mus musculus with 4 samples.

Results

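The cells described here are astrocytes that lay among densely packed Rorb and Cux2 neurons, the neurons of cortical layer 4, set against astrocytes that lay just outside such places. They were chosen by counts and position alone. An astrocyte was a cell with at least 5 counts of Slc1a3 and 3 of Aqp4. A layer 4 neuron had at least 4 counts of Rorb and 2 of Cux2, at most 2 of Slc1a3, and at most 2 of Gad1 and Gad2 together. An astrocyte was inside when 8 or more layer 4 neuron centres lay within 75 coordinate units, and outside when none lay within 75 units but at least 1 lay within 300 units. The rule found 5470 astrocytes inside and 23464 outside, among 72993 astrocytes and 794833 kept cells. Inside astrocytes numbered 932, 1163, 1041 and 2334 on coverslips 1 to 4, and outside astrocytes 3891, 5129, 4407 and 10037.

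The tissue came from mice at postnatal day 5 whose whiskers had been lesioned on 1 side, the right, 24 h earlier, at postnatal day 4. Coronal sections of 10 µm through the barrel cortex, the whisker area, were measured by MERFISH, which images and counts single RNA molecules inside tissue; the panel held 140 genes and 40 blank barcodes that measure false decoding. Each of 4 coverslips carried 1 wild-type section and 1 Cx3cl1(-/-) section, the latter lacking fractalkine, a neuronal chemokine. Male tissue was on coverslips 1 and 2, and female tissue on 3 and 4. All mice had the lesion, so no unlesioned animal enters any value. The files do not tie a cell to a genotype or a hemisphere, so every value pools both genotypes and both sides of the brain, and n is the number of coverslips. Whether the coverslips hold separate animals is not stated, so p-values measure the spread between these 4 samples.

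Layer 4 is the main cortical target of sensory fibres from the thalamus, and in the whisker area its neurons gather into barrels, each served by 1 whisker. Astrocytes tile the cortex, wrap synapses, clear glutamate and turn it into glutamine, and secrete factors that act on synapses. Wnt proteins, which many panel genes concern, are secreted signals read by Frizzled receptors and their partners, with effects through beta-catenin or on the cytoskeleton.

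Gene counts totalled 33519204 to 76555311 per coverslip, with a median of 123 to 268 per cell and with 1.16% to 1.48% of all counts in blanks. Cells under 20 gene counts were left out; they made up 18.2% of the cells on coverslip 1 and 1.55% on coverslip 4. Cells carried the same running names on coverslips 1, 2 and 3, but no position was shared by any pair of coverslips.

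The inside astrocytes carried the markers of their class. Beyond the genes of the rule, they held Aldh1l1, an astrocyte metabolic enzyme, at 5.96 ± 2.67 counts per cell (SD, n = 4), against 0.487 in the layer 4 neurons around them. Apoe, a lipid carrier made by astrocytes, stood at 34.9 ± 13.8 against 2.10 in those neurons. The label "layer 4" held for most members but not for all of them. Of the 27436 neurons that met the rule, 4366 had 3 or more counts of Tcf7l2, a transcription factor of thalamic neurons. They held 14.1 ± 2.39 counts of Slc17a6, the vesicular glutamate transporter VGluT2, against 2.41 ± 0.296 in the neurons with 2 or fewer Tcf7l2 counts. Of them, 2026 were densely packed, and the inside astrocytes around such neurons lay in patches in the middle of the sections.

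**Figure D1:**
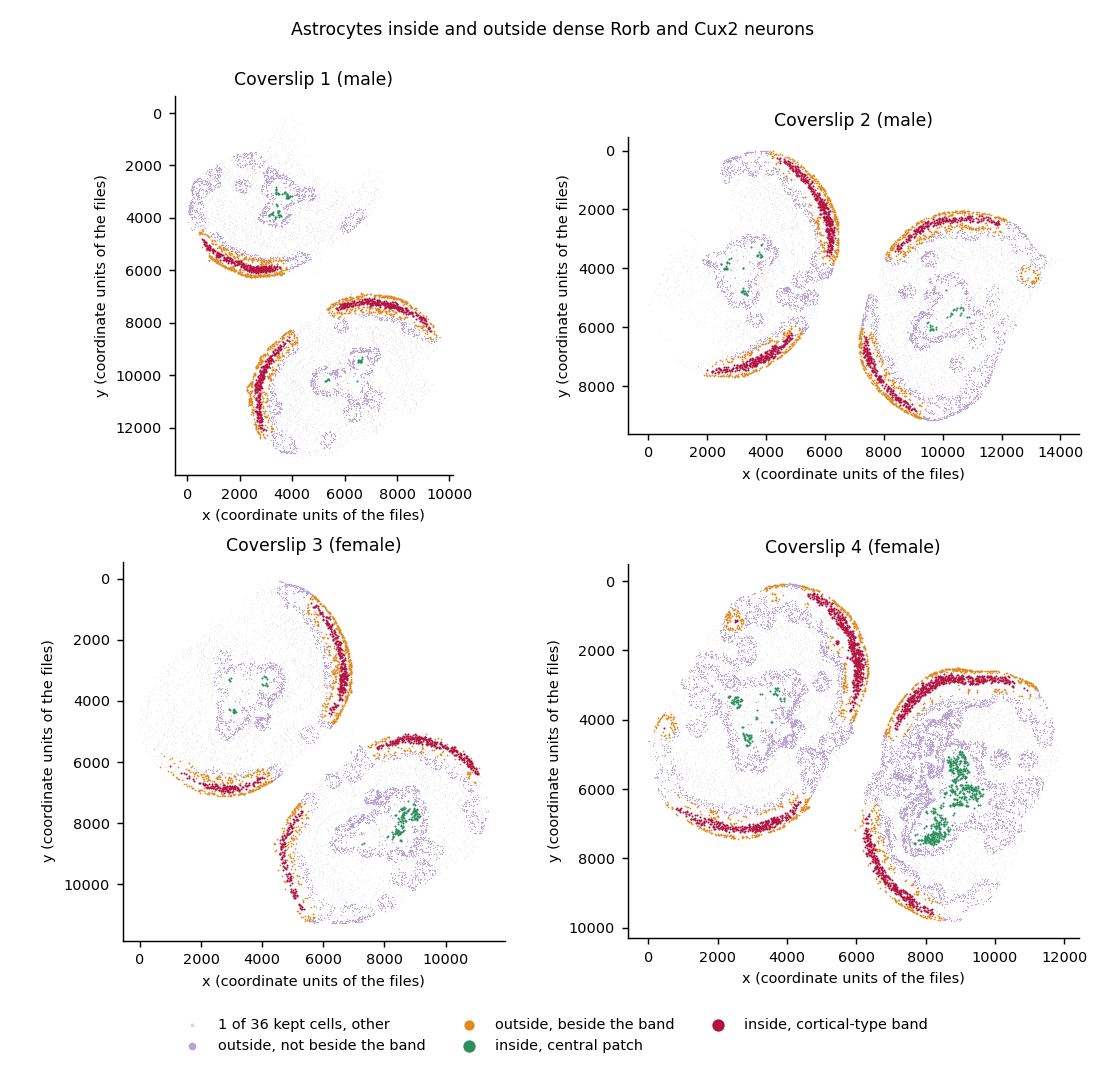
Positions of astrocytes on the 4 coverslips, with x and y in the coordinate units of the files; grey points are a thinned set of the other kept cells. Inside astrocytes of the cortical-type band form long arcs near the outer edge of each section, inside astrocytes of the central patches sit in the middle, and a few small groups beside the band lie away from the arcs on coverslips 2 and 4.

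A stricter set was therefore described beside the rule, chosen after the positions had been seen. Its layer 4 neurons had at most 2 Tcf7l2 counts. The 4537 astrocytes of this cortical-type band had 8 or more such neurons within 75 units, forming the majority of the layer 4 neurons there. They were compared with 4892 astrocytes beside the band, which had no layer 4 neuron within 75 units but, within 300 units, a band neuron that itself had 8 or more of its kind around it. Band astrocytes numbered 850, 1087, 883 and 1717 on coverslips 1 to 4. A further 923 inside astrocytes lay in central patches, from 76 on coverslip 2 to 610 on coverslip 4, and 10 in neither place. Central patch astrocytes had 9.84 ± 1.73 counts of Sox9, a glial transcription factor, against 4.49 ± 1.55 in band astrocytes. They had 7.80 ± 0.896 counts of Glul against 12.6 ± 2.13 in the band.

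The genes that defined the neurons were present in the astrocytes beside them, and their values are a description only. Rorb, a nuclear receptor of layer 4 neurons, stood at 5.87, 6.90, 7.48 and 11.3 counts per band astrocyte on coverslips 1 to 4, against 1.12, 1.07, 1.27 and 1.93 beside the band. The excess of Rorb came to 35.8% ± 2.86 of the level in the densely packed band neurons. Cux2, a transcription factor of upper and layer 4 neurons, stood at 5.51 ± 1.71 against 1.00 ± 0.242, an excess of 30.6% ± 2.87 of the neuron level. By the rule itself, the excesses were 32.4% ± 2.00 for Rorb and 29.5% ± 2.14 for Cux2. The Rorb share lay above the Cux2 share on 4 of 4 coverslips, in the band and by the rule. Astrocytes with no Rorb and no Cux2 count made up 1.57% to 7.65% of band astrocytes and 18.5% to 31.5% of those beside it. The neuron genes Meg3, Peg3, Bcl11b, Syt6, Slc17a6, Fosl2 and Cx3cl1 together summed to between 17.3 and 33.9 counts per band astrocyte and to between 9.41 and 19.0 beside the band. Blanks per cell volume also moved, by log2 0.09, 0.39, 0.31 and 0.19 in the band on coverslips 1 to 4. The part of neuron RNA in each gene's difference was not tested beyond the neuron levels and the subtraction given here.

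Counts of all astrocytes of a side were summed per coverslip and compared in pairs per summed cell volume, over the panel genes that had not chosen the cells; a gene was called at an adjusted p under 0.05 when it also lay above every blank on all 4 coverslips on its higher side. By the rule, 78 of 134 genes (58.2%) were called, 40 (29.9%) higher inside and 38 (28.4%) lower, and the median log2 difference was -0.01. In the band, 83 of 133 genes (62.4%) were called, 44 (33.1%) higher and 39 (29.3%) lower, with a median of 0.14. Of the genes higher by the rule, 36 were also higher in the band, which is 90% of the first list and 81.8% of the second. Of the lower genes, 28 were shared, 73.7% and 71.8%, and Sox9, Sox2 and Peg3 turned from lower by the rule to higher in the band. Without coverslip 3, the rule called 24 genes lower. Log2 differences below are per summed volume, inside minus outside, with their SE, and levels are counts per astrocyte.

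Gfap, the intermediate filament protein of border and reactive astrocytes, showed the largest difference of all tested genes. Band astrocytes held 1.4, 1.42, 1.86 and 1.92 counts on coverslips 1 to 4, against 14, 13.4, 10.2 and 21.1 beside the band. Every band value lay far below every value beside it, and the log2 difference was -3.0 ± 0.14 (adjusted p = 2.3e-06). By the rule, Gfap stood at 1.52 ± 0.229 against 13.5 ± 2.87, a log2 difference of -3.05 ± 0.09. The filament gene Vim, marking immature astrocytes, was lower as well, at 1.12, 1.36, 1.83 and 2.91 counts against 5.84, 4.11, 5.31 and 7.17 (log2 -1.58 ± 0.14, adjusted p = 5.2e-05).

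Of the 9 astrocyte genes tested in the band, 3 were higher and 4 lower, against 33.1% higher and 29.3% lower over all tested genes. Their median log2 was -0.02 against 0.14 over all tested genes. The higher genes were Glul, which encodes the glutamate-converting enzyme glutamine synthetase, and the glial transcription factors Sox9 and Sox2. Glul stood at 9.77, 12.7, 13.1 and 14.9 counts in the band and at 9.57, 11.5, 9.62 and 11 beside it, so the groups overlapped although each coverslip ran the same way (log2 0.39 ± 0.05, adjusted p = 0.00051). Sox9 (log2 0.19 ± 0.05) and Sox2 (log2 0.18 ± 0.05) differed little, and Sox2 turned to log2 -0.01 when sums were scaled to their total counts. Apoe (log2 -0.21 ± 0.03) and the BMP target gene Id1 (log2 -0.48 ± 0.10) were lower in the band. Aldh1l1 was not called, at 5.33 ± 2.12 counts in the band and 5.84 ± 2.13 beside it (log2 -0.02 ± 0.05), nor was the glycolytic enzyme gene Aldoc (log2 0.15 ± 0.06). By the rule, 1 of the 9 was higher (Glul, log2 0.33 ± 0.07) and 5 were lower (Gfap, Vim, Apoe, Sox9 and Sox2), with Sox9 at log2 -0.23 ± 0.05. Over all genes tested by the rule, 29.9% were higher and 28.4% lower.

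**Figure D2:**
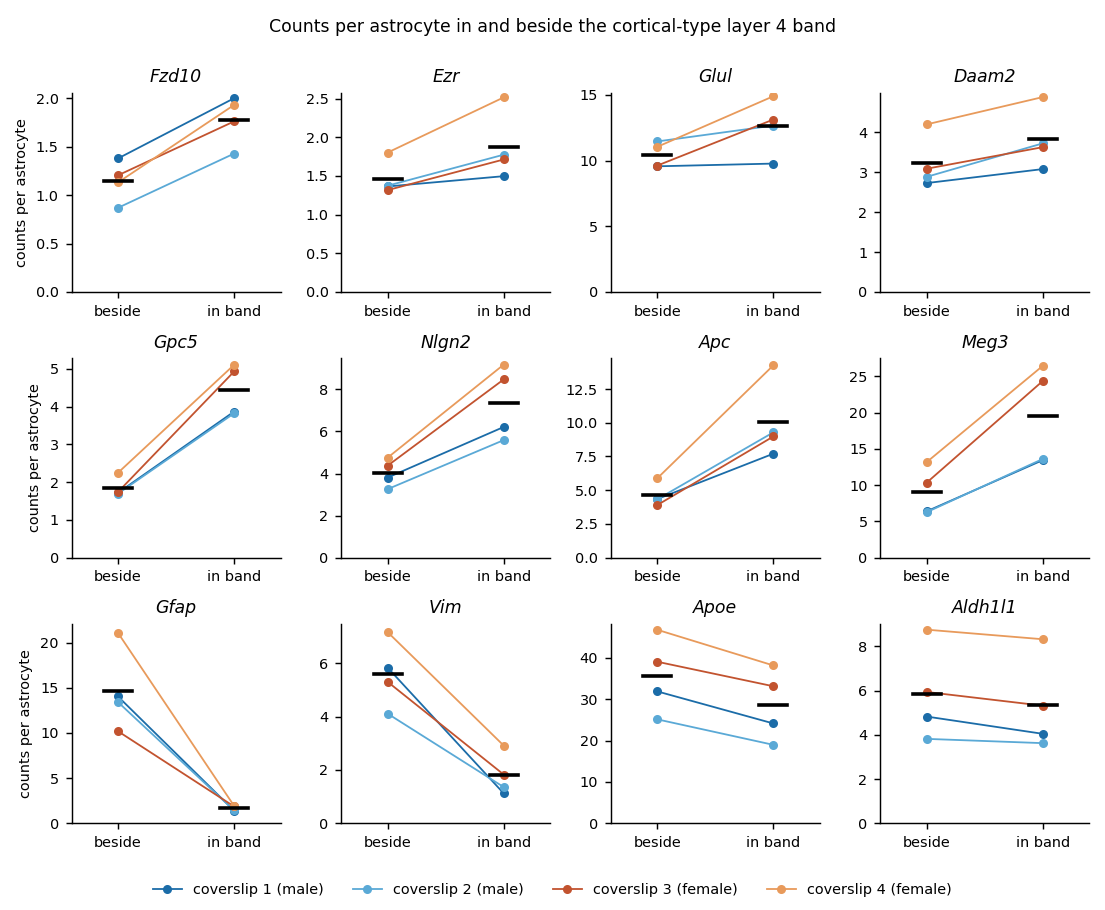
Counts per astrocyte of 12 genes beside the band and in it; each line joins the 2 sides of a coverslip and black bars are means of the 4 coverslips. Fzd10, Ezr, Glul, Daam2, Gpc5, Nlgn2, Apc and Meg3 are higher in the band on every coverslip, Gfap, Vim and Apoe are lower, and Aldh1l1 (log2 -0.02 per volume) was not called.

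The genes that were higher in the band fell into unequal groups by their level in the band neurons themselves. Of the 44, 33 (75%) had a higher level per volume in the neurons than in the astrocytes beside the band, on all 4 coverslips. A further 10 had a lower level in the neurons on all 4, namely Glul, Sox9, Bcl2, Daam2, Sox2, Ezr, Wnt7a, Etv4, Fzd10 and Gpc4. Of the 39 genes lower in the band, none had a higher level in the neurons and 36 had a lower one. By the rule, 32 of the 40 higher genes had a higher level in the neurons, and 5 had a lower one.

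A neuron profile was then subtracted from the inside sums, scaled so that the Rorb excess became 0. This left 8 of the 44 band genes higher on 4 of 4 coverslips (Glul, Sox9, Daam2, Sox2, Ezr, Wnt7a, Etv4 and Fzd10) and 5 of the 40 rule genes (Glul, Sox7, Wnt7a, Etv4 and Fzd10). Scaled to Cux2 instead, it left the same 8 band genes with Apc added, 9 in all, and the same 5 rule genes. After the Rorb-scaled subtraction, 28 of the 44 band genes were lower on 4 of 4 coverslips and 8 were mixed. By the rule, 34 of the 40 were lower and 1 was mixed. All 8 band genes left higher by the Rorb-scaled subtraction were among the 10 with a lower level in the neurons. A neuron profile holds less of such genes to subtract, so this result is not independent of that split. The subtraction assumes that every neuron gene enters an astrocyte in the proportion that Rorb does, which was not tested. Whether it took away too much was not tested either.

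**Figure D3:**
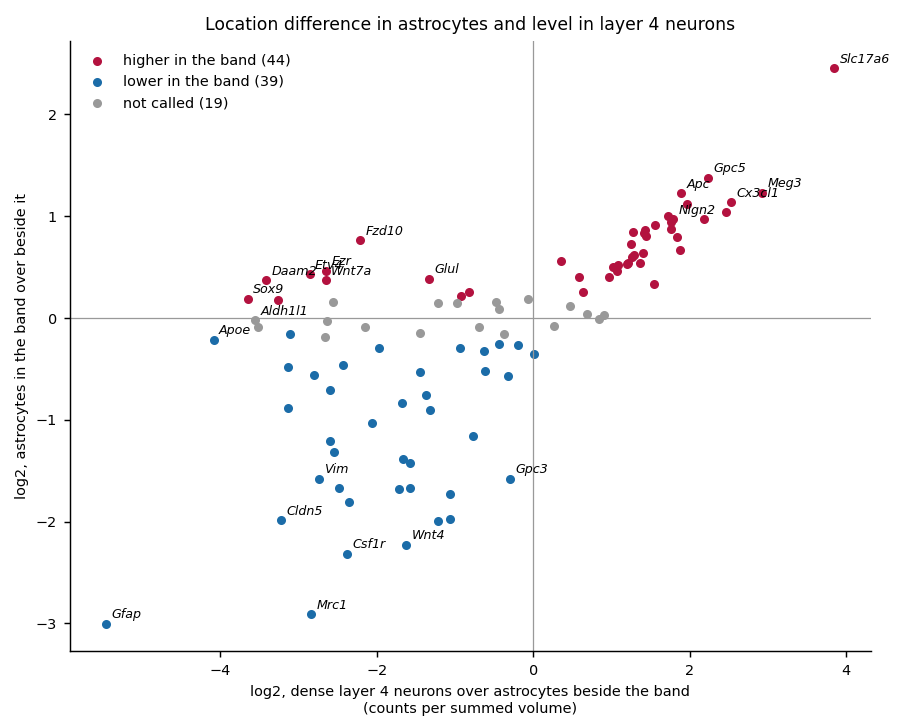
Log2 difference between band astrocytes and astrocytes beside the band (vertical) against the log2 level of densely packed layer 4 neurons over astrocytes beside the band (horizontal), both per summed volume, for the 102 genes above every blank on at least 1 side. Most of the 44 higher genes lie to the right, where the neuron level is higher, while Fzd10, Ezr, Etv4, Wnt7a, Daam2, Glul, Sox9 and others lie to the left.

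Fzd10, a Frizzled receptor for Wnt ligands, was scarce in band neurons, at 0.219 ± 0.0313 counts per cell. Band astrocytes held 2.00, 1.43, 1.76 and 1.93 counts on coverslips 1 to 4, and astrocytes beside the band held 1.38, 0.868, 1.2 and 1.13. All band values lay above all values beside the band, with a log2 difference of 0.77 ± 0.07 (adjusted p = 7.7e-05). By the rule, the levels were 2.20, 1.58, 2.78 and 3.27 against 1.14, 0.840, 1.19 and 0.782 (log2 1.37 ± 0.18, adjusted p = 0.00064). The central patches carried the highest level, 5.90 ± 2.31 counts per astrocyte, and there the neurons with 3 or more Tcf7l2 counts also held Fzd10, at 3.83 ± 1.63 where densely packed. Among astrocytes without a Rorb or Cux2 count, 205 in the band and 1292 beside it, Fzd10 was higher in the band per volume (log2 0.55 ± 0.16, adjusted p = 0.030). Per cell it hardly differed there, at 1.05 ± 0.193 counts against 1.01 ± 0.182. Those band astrocytes had a mean of 116 to 163 gene counts per cell, against 214 to 357 over all band astrocytes. Such astrocytes beside the band had 169 to 250.

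Other genes with a low neuron level differed less. Ezr, which encodes the membrane-to-actin linker ezrin of fine astrocyte processes, stood at 1.5, 1.78, 1.71 and 2.52 counts in the band and at 1.36, 1.37, 1.32 and 1.80 beside it (log2 0.46 ± 0.06, adjusted p = 0.00049). By the rule Ezr was not called (log2 0.09 ± 0.11). The Wnt-pathway formin gene Daam2 (log2 0.37 ± 0.06), the transcription factor gene Etv4 (log2 0.43 ± 0.06) and the Wnt ligand gene Wnt7a (log2 0.37 ± 0.09) were higher in the band. By the rule, Etv4 (log2 0.21 ± 0.06) and Wnt7a (log2 0.18 ± 0.06) were called and Daam2 (log2 0.02 ± 0.06) was not.

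Of 6 genes that act where astrocytes meet synapses, Gpc4, Gpc5, Ezr and Nlgn2 were higher in the band and none was lower, against 33.1% higher and 29.3% lower over all tested genes, with a median log2 of 0.34 against 0.14. By the rule, Gpc4, Gpc5, Gpc6 and Nlgn2 were higher and Slc9a3r1 was lower. Of the 4 higher band genes, only Ezr was still higher on 4 of 4 coverslips after the Rorb-scaled subtraction. Gpc5, a glypican of the astrocyte surface, stood at 3.87, 3.83, 4.93 and 5.11 counts in the band and at 1.72, 1.70, 1.74 and 2.25 beside it (log2 1.38 ± 0.06, adjusted p = 2.2e-06). The groups did not overlap, but band neurons held 7.77 counts of Gpc5 per cell, and after the Rorb-scaled subtraction it was higher on 1 of 4 coverslips. Nlgn2, an adhesion molecule of synapses, stood at 7.36 ± 1.73 against 4.05 ± 0.655 (log2 0.97 ± 0.05), with 12.5 in the neurons, and was higher on no coverslip after the subtraction. Gpc4, whose product recruits glutamate receptors to new synapses, differed slightly (log2 0.22 ± 0.06) and was higher on 2 of 4 coverslips after the subtraction. Gpc6 (log2 -0.09 ± 0.07) and Slc9a3r1, which encodes a partner of ezrin (log2 -0.08 ± 0.06), were not called in the band.

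Heparan sulfate proteoglycans carry sugar chains that bind Wnt and other ligands, and 6 of the 10 were higher in the band while 3 were lower (median log2 0.47), against 33.1% higher and 29.3% lower over all tested genes. By the rule 7 were higher and 2 lower. The glypican gene Gpc1 was higher, at 4.42 ± 1.34 against 2.41 ± 0.553 counts (log2 0.97 ± 0.07), but not after the Rorb-scaled subtraction (log2 -1.66). Gpc2, Gpc4, Gpc5, Sdc1 and Sdc3 were also higher. None of these 6 genes was still higher on 4 of 4 coverslips after the Rorb-scaled subtraction. Gpc3 was lower (log2 -1.58 ± 0.18), as were Sdc2 and Sdc4.

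Of 19 Wnt ligand and secretion genes, 4 were higher in the band (Wnt7a, Wnt7b, Wnt9a and Porcn) and 3 lower (Wnt4, Wnt5a and Wls), with a median log2 of 0.38 and 12 not called, against 33.1% higher and 29.3% lower over all tested genes. By the rule 4 were higher and 2 lower. Wnt9a, a ligand gene on the layer 4 neuron list, stood at 0.336 ± 0.0735 against 0.233 ± 0.0649 counts (log2 0.67 ± 0.19), with 0.763 in band neurons; its level beside the band was not above every blank. Wnt2b, the other ligand gene on that list, was not above every blank and was not called. Wnt4 was lower, at 0.271 ± 0.0604 against 1.39 ± 0.380 (log2 -2.23 ± 0.09), and Wnt5a at 0.293 ± 0.0556 against 1.01 ± 0.0970 (log2 -1.67 ± 0.09). Porcn and Wls, which prepare and release Wnt proteins, went opposite ways, at log2 0.87 ± 0.09 and -1.16 ± 0.12.

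Of 19 Wnt receptor and co-receptor genes, 4 were higher in the band (Fzd10, Fzd3, Fzd9 and Ryk) and 8 lower (Fzd1, Fzd4, Fzd6, Fzd7, Lrp5, Ror2, Ptk7 and Adgra2), with a median log2 of -0.29, against 33.1% higher and 29.3% lower over all tested genes. By the rule 4 were higher (Fzd10, Fzd3, Ryk and Reck) and 8 lower. Fzd3, a receptor of axon guidance, stood at 2.34 ± 0.563 against 1.15 ± 0.15 counts (log2 1.12 ± 0.07), with 4.03 in the neurons. Fzd9 stood at 0.744 ± 0.190 against 0.446 ± 0.0978 (log2 0.84 ± 0.11), but by the rule it was not called (log2 -0.10 ± 0.09). The co-receptor genes Lrp5 (log2 -0.53 ± 0.07) and Ror2 (log2 -1.32 ± 0.09) were lower. Against the deep side of the band alone, described below, none of the 8 lower receptor and co-receptor genes was called lower. Lrp5 (log2 0.14) and Ror2 (log2 -0.27) were not called there, and Ptk7 (log2 0.23) and Adgra2 (log2 0.57) were called higher. Of the 4 higher receptor genes, only Fzd10 was still higher on 4 of 4 coverslips after the Rorb-scaled subtraction. Inside the cell, 11 of 16 Wnt pathway genes were higher and 3 lower (median log2 0.53), against 33.1% higher and 29.3% lower over all tested genes; by the rule 10 of 17 were higher and 2 lower. Apc, a scaffold that marks beta-catenin for destruction, differed most among these, at 7.71, 9.29, 8.98 and 14.3 counts against 4.34, 4.32, 3.89 and 5.88 (log2 1.23 ± 0.06, adjusted p = 2.3e-06), and the neurons held 15.2. Of the 11 higher pathway genes, only Daam2 was still higher on 4 of 4 coverslips after the Rorb-scaled subtraction. Scaled to Cux2, Daam2 and Apc were. Daam2 was also the only one of the 11 with a lower level in the band neurons on all 4 coverslips. By the rule, none of the 10 was still higher on 4 of 4 coverslips after either subtraction. Ctnnb1, the beta-catenin gene, was not called (log2 -0.07 ± 0.12). Of the 7 Wnt antagonist genes, Frzb, itself not above every blank beside the band, was higher, and Sfrp1 and Trabd2b were lower.

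Of 7 cortical neuron genes, Meg3, Peg3, Slc17a6 and Cx3cl1 were higher in the band astrocytes and Syt6 and Fosl2 lower, against 33.1% higher and 29.3% lower over all tested genes, with a median log2 of 0.34. By the rule, Meg3, Slc17a6 and Cx3cl1 were higher and Peg3, Bcl11b, Syt6 and Fosl2 lower, with a median log2 of -0.14. Of 3 inhibitory neuron genes, Sst was lower in the band and by the rule. Slc17a6 stood at 0.779, 0.797, 1.12 and 1.10 counts in the band and at 0.163, 0.167, 0.182 and 0.238 beside it (log2 2.45 ± 0.09, adjusted p = 1.1e-06), with 2.41 in band neurons; its levels beside the band were not above every blank. Meg3, a noncoding RNA abundant in neurons, stood at 19.5 ± 6.92 against 9.06 ± 3.35 (log2 1.23 ± 0.05). In the astrocytes without a Rorb or Cux2 count Meg3 was lower in the band (log2 -1.64 ± 0.35), opposite to its direction over all band astrocytes. Cx3cl1, the fractalkine gene, stood at 1.44 ± 0.509 against 0.679 ± 0.13 (log2 1.14 ± 0.18) and pools wild-type and knockout sections.

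All 7 vessel genes were lower in the band, against 33.1% higher and 29.3% lower over all tested genes, with a median log2 of -1.03, and their summed level ran from 3.33 to 5.06 counts per band astrocyte against 7.51 to 15.9 beside it. Cldn5, a tight junction gene of endothelium, stood at 0.867, 0.725, 1.49 and 0.815 against 6.70, 2.42, 4.93 and 3.36 (log2 -1.99 ± 0.18). Of 6 genes of border macrophages and leptomeninges, 5 were lower (median log2 -1.70), with sums of 1.29 to 2.13 against 3.96 to 6.65. The border macrophage receptor gene Mrc1 stood at 0.0742 ± 0.0179 counts in the band, not above every blank, and at 0.606 ± 0.114 beside it. Pdgfrb is counted in both the vessel and the border list. Other lists share genes as well, so their counts are not independent. Wnt4, Wnt5a and Wnt6 of the border list are also Wnt ligand genes. Adgra2, Fzd4 and Fzd6 of the vessel list are also Wnt receptor genes, and Lef1 is also a Wnt pathway gene. Gpc4, Gpc5 and Gpc6 are on both the synapse contact and the proteoglycan list. Of 8 microglia genes, 5 were lower (median log2 -0.71), with sums of 0.989 to 1.94 against 2.10 to 3.33 counts. The receptor gene Csf1r stood at 0.0956 ± 0.0647 counts in the band, not above every blank, and at 0.486 ± 0.115 beside it. Of the 39 genes lower in the band, 12 were not above every blank in the band, and 9 of the 38 by the rule, so the sizes of their differences are not measured folds. Against the deep side alone, Pdgfrb was the only one of these vessel, border and microglia genes called lower, and Adgra2 (log2 0.57) and Lef1 (log2 1.38) were called higher. Against the upper side alone, 5 of the 7 vessel genes were called lower. No marker of these lists was at 0 on either side, and their part in the other differences was not tested. Oligodendrocyte lineage genes moved least, with Pdgfra alone lower among 5.

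In cortex, layer 4 lies between upper and deep layers. Astrocytes beside the band were split by which of 2 kinds of neuron, with at least 5 within 75 units, was the more frequent. Of them, 1542 lay among upper-type neurons (at least 4 counts of Cux2 and at most 1 of Rorb). Another 1306 lay among deep-type neurons (at least 4 counts of Bcl11b and at most 1 of Cux2). The other 2044 of the 4892 were placed on neither side. With the upper and deep sides set directly against each other, 30 of 132 genes (22.7%) were called, 15 higher on the upper side (11.4%) and 15 lower (11.4%). Gfap stood at 9.44 ± 4.36 counts on the upper side and 3.52 ± 0.734 on the deep side (log2 1.29 ± 0.13), and Vim at 3.40 ± 1.29 against 1.42 ± 0.529 (log2 1.19 ± 0.13). Both Gfap means lay below the level of every coverslip over all astrocytes beside the band, which include those on neither side. The vessel genes Cldn5, Pecam1, Adgra2 and Lef1 were higher on the upper side, with a median log2 of 1.02 over the 7. Gpc5 was lower there, at 1.53 ± 0.146 against 2.95 ± 0.360 (log2 -1.0 ± 0.11).

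Of the same 132 genes, 44 were called higher in the band and 18 lower against the upper side alone. Against the deep side alone, 36 were called higher and 6 lower. Higher than on both sides were 30 genes, among them Glul, Fzd10, Fzd3, Gpc5, Gpc1, Nlgn2, Apc, Meg3 and Wnt9a. Of these 30, only Glul and Fzd10 were among the 8 band genes still higher on 4 of 4 coverslips after the Rorb-scaled subtraction. Only Gfap and the mural cell receptor gene Pdgfrb were lower than on both sides. Gfap differed by log2 -2.36 ± 0.19 from the upper side and by -1.07 ± 0.10 from the deep side, where the vessel gene Cldn5 did not pass the test (log2 0.38 ± 0.42). Fzd10 was higher than on the upper side by log2 0.62 ± 0.09 and than on the deep side by 0.91 ± 0.11. Band astrocytes were thus below both sides in Gfap and above both in Fzd10, while other genes ran in 1 direction through the cortex. Sox7, Adgra2, Lef1 and Tcf7 were lower than on the upper side and higher than on the deep side. Ezr (log2 0.19 ± 0.08), Daam2 (log2 -0.16 ± 0.06), Etv4 (log2 0.07 ± 0.08) and Wnt7a (log2 -0.12 ± 0.10) were not called against the deep side. Vim was lower than on the upper side (log2 -0.86 ± 0.07) and not called against the deep side (log2 0.33 ± 0.12).

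**Figure D4:**
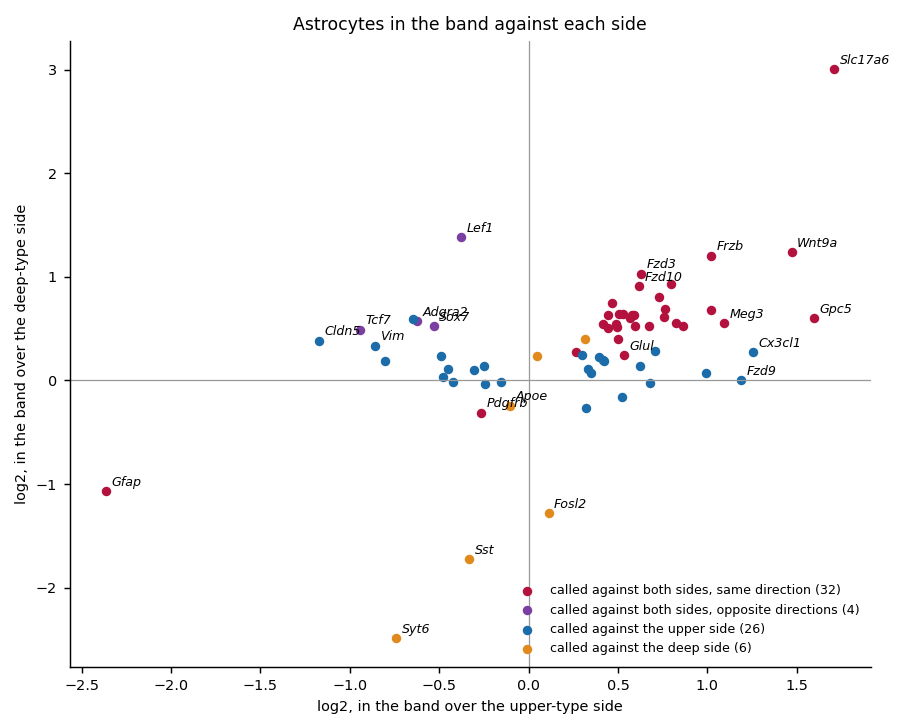
Log2 difference per summed volume of band astrocytes over astrocytes on the upper-type side (horizontal) and on the deep-type side (vertical), for genes called against at least 1 side; colours give which. Gfap is low against both sides, Fzd10, Fzd3, Gpc5 and Slc17a6 are high against both, and Lef1, Tcf7, Adgra2 and Sox7 lie below the upper side and above the deep side.

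Leaving out every astrocyte with 3 or more Gfap counts kept 3758 of 4537 in the band and 1877 of 4892 beside it. In these cells 44 genes were higher in the band (37 of them among the 44 before) and 11 lower (9 of them among the 39 before). Fzd10 (log2 1.01 ± 0.10), Glul (log2 0.53 ± 0.07), Gpc5 (log2 0.99 ± 0.09) and Ezr (log2 0.37 ± 0.07) were still called higher. Cldn5 (log2 -0.59 ± 0.25) was no longer called.

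Levels were also followed with the number of cortical-type layer 4 neurons within 75 units, in 5 classes of astrocytes from none (4892) over 1 to 3 (2731), 4 to 7 (1174) and 8 to 11 (506) to 12 or more (3604). Per 1000 volume units, Gpc5, Apc, Rorb and Cux2 rose at every step on all 4 coverslips. Nlgn2, Gpc1, Gsk3b and Slc17a6 did so on 3 coverslips and Fzd10 on 2. Gfap fell at every step on 3 coverslips, with its largest drop between none and 1 to 3 neurons. At the edge of the rule, the 364 astrocytes with exactly 7 rule neurons held 2.37 ± 0.532 counts of Rorb and 2.41 ± 2.54 of Gfap, and the 328 with exactly 8 held 2.82 ± 0.568 and 1.81 ± 0.601. Among inside cells at the Slc1a3 limit, the 356 with exactly 5 counts held 49.3 ± 17.6 counts of Meg3 and 10.8 ± 3.92 of Rorb, close to the 389 just outside it with 4 counts (50.7 ± 24.3 and 10.5 ± 4.14). Cells at that limit thus carried more of these neuron RNAs than the mean band astrocyte.

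**Figure D5:**
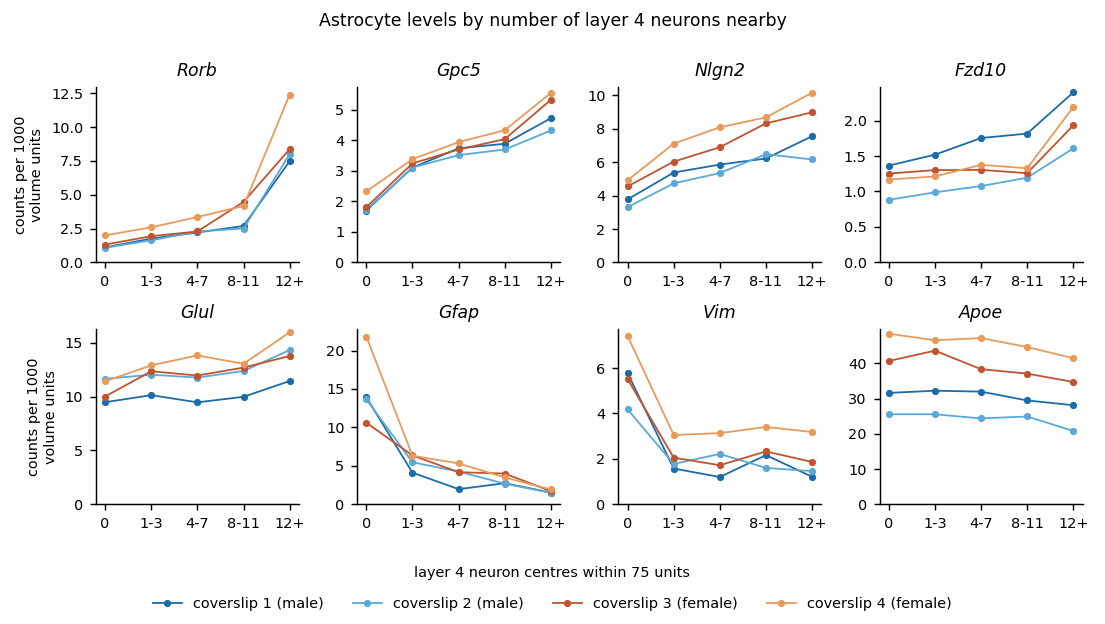
Counts per 1000 volume units of 8 genes in astrocytes, by number of cortical-type layer 4 neuron centres within 75 units, 1 line per coverslip. Rorb, Gpc5 and Nlgn2 climb with the number of neurons, Fzd10 and Glul are highest at 12 or more, and Gfap and Vim are highest where no such neuron is near.

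Within the band, 1068 astrocytes had a layer 4 neuron centre within 10 units and 1906 had none within 15 units. Of 133 genes, 23 (17.3%) were called, 13 higher in the near astrocytes (9.77%) and 10 lower (7.52%). Fzd10 led, at 2.05 ± 0.311 counts near against 1.56 ± 0.231 apart (log2 0.68 ± 0.05 per volume, adjusted p = 1.6e-06). It was followed by Tcf4 (log2 0.47 ± 0.08), Daam2 (log2 0.38 ± 0.04), Glul (log2 0.37 ± 0.04) and Ezr (log2 0.35 ± 0.05). Counts per cell differed little for Glul (12.9 ± 2.22 near, 12.2 ± 2.04 apart) and Ezr (1.88 ± 0.516 near, 1.80 ± 0.394 apart). Tcf4 stood at 0.826 ± 0.232 per cell near and 0.727 ± 0.212 apart. Near astrocytes had less segmented volume per cell, so the scaling by volume raised every gene near. Apc stood at 9.08 ± 2.37 counts per cell near and 10.1 ± 3.29 apart, but at 11.7 and 10.6 per 1000 volume units. Nlgn2 stood at 6.52 ± 1.56 and 7.50 ± 2.04 per cell, but at 8.38 and 7.89 per 1000 volume units. Meg3 was lower near (log2 -0.37 ± 0.05), as were Gfap (log2 -0.50 ± 0.07) and Gpc1 (log2 -0.18 ± 0.04). Rorb, a gene of the rule, stood at 9.31 ± 3.09 counts near and 5.54 ± 1.86 apart. So Rorb and Meg3, both abundant in the neurons, differed in opposite directions. Astrocytes with no neuron centre within 15 units, set against such astrocytes beside the band, still showed Fzd10 (log2 0.50 ± 0.09), Glul (log2 0.27 ± 0.06) and Ezr (log2 0.34 ± 0.09) higher.

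Oligodendrocyte precursor cells (OPC, with Pdgfra and Sox10) and microglia (with Csf1r and C1qa) of the same places were compared as other cells that neighbour the same neurons. There were 1868 OPC in the band and 1851 beside it, and 257 microglia against 775. In OPC alone, 61 of 131 genes (46.6%) differed between band and side, 39 (29.8%) higher and 22 (16.8%) lower, and by the rule 51 of 132 (38.6%), 39 (29.5%) higher and 12 (9.09%) lower. In microglia alone, 53 of 131 (40.5%) differed in the band, 28 (21.4%) higher and 25 (19.1%) lower, and by the rule 47 of 132 (35.6%), 31 (23.5%) higher and 16 (12.1%) lower. The differences between cell types were then tested. Of 131 genes, 32 (24.4%) were called, and 10 (7.63%) had a more positive difference between band and side in astrocytes than in OPC and 22 (16.8%) a more negative one. This balance turned with the scaling: scaled by TMM factors it was 18 to 11 and scaled to total counts 20 to 12, so single genes are given with that limit. Leaving out 1 coverslip at a time gave 3 to 13 and 12 to 16 genes, with 3, 4 and 5 of the former without coverslips 2, 3 and 4, and 13, 12 and 13 of the latter without coverslips 1, 3 and 4. Fzd10 differed by log2 0.99 ± 0.23 (adjusted p = 0.012) and Ezr by 0.74 ± 0.14 in favour of astrocytes. By the rule, Ezr was called (log2 1.03 ± 0.18) but Fzd10 was not (log2 0.36 ± 0.37, adjusted p = 0.48). Gpc5 (log2 0.48 ± 0.13), Meg3 (log2 0.62 ± 0.09) and Nlgn2 (log2 0.47 ± 0.08) also differed, although OPC of the band were themselves higher in each, Gpc5 by log2 0.89. By the rule, Gpc5 was called the opposite way (log2 -0.32 ± 0.08) and Meg3 was not called. Gfap differed by log2 -1.13 ± 0.26, and the OPC, which should lack it, were lower in the band by a log2 of -1.85.

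By the rule, 24 of 132 genes (18.2%) were called: 4 (3.03%) had a more positive difference in astrocytes than in OPC and 20 (15.2%) a more negative one, against 19 and 5 with TMM factors and 24 and 4 scaled to total counts. These rule counts were 2 and 8 without coverslip 1, 2 and 9 without coverslip 2, 1 and 5 without coverslip 3, and 8 and 31 without coverslip 4. Against microglia in the band, 33 of 131 genes (25.2%) were called: 17 (13%) had a more positive difference in astrocytes and 16 (12.2%) a more negative one, with 11 of the former without coverslip 2. Fzd10 (log2 1.65 ± 0.20, adjusted p = 0.0001), Gpc4 (log2 1.37 ± 0.19), Etv4 (log2 1.03 ± 0.23) and Glul (log2 0.52 ± 0.16) were among the former, and the microglia genes Cx3cr1 (log2 -2.39 ± 0.22) and Tmem119 (log2 -2.16 ± 0.17) among the latter. By the rule the counts against microglia were 5 (3.79%) and 16 (12.1%) of 132, together 15.9%, and 22 and 8 with TMM factors; they were 2 and 9, 2 and 7, and 2 and 10 without coverslips 1, 2 and 3.

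Among kept cells other than layer 4 neurons, astrocytes made up 11.4% ± 1.23 in the band and 10.2% ± 1.61 beside it. The share was higher in the band on 4 of 4 coverslips (exact two-sided permutation test p = 0.13, the smallest that 4 pairs allow). By the rule the shares were 11.3% ± 1.15 and 8.87% ± 1.36, again 4 of 4 (exact p = 0.13). Band astrocytes were smaller, with a segmented volume of 901 ± 42.0 against 980 ± 21.7 volume units, lower on 4 of 4 coverslips (exact p = 0.13). Gene counts per astrocyte were 268 ± 68.3 in the band and 253 ± 45.8 beside it, higher on 3 of 4 coverslips (exact p = 0.375).

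Location differences were compared between the 2 female and the 2 male coverslips. No gene was called by edgeR's interaction test, by the rule or in the band; 3 genes by the rule and 7 in the band had an unadjusted p under 0.05, and in the band the receptor kinase gene Musk passed the adjusted threshold without lying above every blank.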

How the data were processed

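MERFISH counts of 140 genes and 40 blanks per cell were taken from 4 coverslips with 8 sections in all. The authors deposited, per the file headers, whole counts per cell, with the volume of each segmented cell and the position of its centre as other values whose unit is not given; the software for decoding and segmentation is not given in the sources used here. Members and gene lists were chosen with earlier results of these data known. The cortical-type band, the upper against deep side and the near against apart comparison were added after the data had been seen.

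Counts were summed per coverslip and side and tested with edgeR 4.0.16 (glmQLFTest, R 4.3.3), with the coverslip as block and the summed cell volume as offset; p-values were adjusted by Benjamini-Hochberg. Genes that chose the cells of a comparison (Slc1a3, Aqp4, Rorb, Cux2, Gad1 and Gad2, and Tcf7l2 in the band) were not tested in it. Since inside and outside sums share a coverslip, they are paired by design. Genes named are up to 12 in each direction with the largest difference that ran the same way on 4 of 4 coverslips, and the members of the astrocyte, synapse contact and layer 4 neuron lists; others were chosen after their values had been seen. In simulated counts for the rule, the test recovered 51% of genes changed 1.25-fold and 99% of those changed 1.5-fold, and called 1.49% of unchanged genes; for the band the shares were 56%, 98% and 1.29%. The simulation gave every gene the same fixed spread between sums and added no neuron RNA, so these shares need not hold for the real counts. DESeq2 1.42.0, TMM factors, total counts, other radii and limits, and each coverslip left out were the alternatives.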

Additional observations from a re-analysis of the deposited data

Results flagged for a closer look

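Of 80 inside-minus-outside differences examined per coverslip (74 log2 differences of named genes and 6 of shares, volumes and gene counts, by the rule and in the band), 6 had a coverslip far from the other 3 by Dixon's test; chance alone marks about 1 in 20 (5%) of such groups. By the rule, Fzd10 stood at 2.09 on coverslip 4 against 1.06 to 1.23 on the others, and coverslip 4 also held 610 of the 923 central patch astrocytes. Fzd3 stood at 1.17 on coverslip 2 (others 0.88 to 0.90), Cldn5 at -1.86 on coverslip 1 (others -1.05 to -0.93), Apoe at -0.23 on coverslip 4 (others -0.51 to -0.49) and Aldoc at -0.16 on coverslip 3 (others 0.03 to 0.05). In the band, Adgra2 stood at -2.27 on coverslip 1 (others -1.93 to -1.89).

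The other values mark genes whose location difference was not the same in astrocytes as in another cell type, by edgeR's interaction test; each is the log2 difference in astrocytes minus that in the other cells. The balance of positive and negative values turned with the scaling (TMM or total counts in place of volume). Gpc5 ran opposite ways by the rule and in the band against OPC. By the rule and against OPC, the difference was more positive for Ezr (1.03), Nlgn2 (0.38), Prkce (0.25) and Gpc1 (0.24). Ezr ran opposite ways, at log2 0.10 in astrocytes and -0.92 in OPC. It was more negative for Cldn5 (-1.0), Adgra2 (-0.96), Gfap (-0.82), Wnt4 (-0.82), Col4a6 (-0.70), Syt6 (-0.68), Vim (-0.67), Sox9 (-0.64), Sox2 (-0.33) and Gpc5 (-0.32). Against microglia it was more positive for Gpc4 (1.00), Apoe (0.71) and Prkce (0.33), and more negative for Gpc5 (-2.15), Cx3cr1 (-1.75), Tmem119 (-1.71), Cldn5 (-1.40), Sox2 (-0.80), Adgra2 (-0.63) and Apc2 (-0.37).

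In the band and against OPC, it was more positive for Ezr (0.74), Slc17a6 (0.66), Meg3 (0.62), Gpc5 (0.48), Prkce (0.48), Nlgn2 (0.47), Gpc1 (0.39) and Apc (0.37). It was more negative for Mrc1 (-1.85), Csf1r (-1.85), Cx3cr1 (-1.47), Wnt4 (-1.33), Adgra2 (-1.23), Gfap (-1.13), Col4a6 (-1.11), Lyve1 (-0.99), Trabd2b (-0.96), Wnt5a (-0.70) and Aldoc (-0.32). Against microglia it was more positive for Lyve1 (3.64), Apoe (1.69), Gpc4 (1.37), Ezr (0.94), Slc9a3r1 (0.90), Aldh1l1 (0.69), Aldoc (0.66), Sox9 (0.65), Glul (0.52) and Gpc6 (0.52). It was more negative for Cx3cr1 (-2.39), Tmem119 (-2.16), Mrc1 (-1.99), Gpc5 (-1.80), Cldn5 (-1.80), Adgra2 (-0.85), Gpc1 (-0.51) and Nlgn2 (-0.38). Only 257 microglia lay in the band, so their side of these values rests on few cells.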

How the results depend on the processing

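Counts called by the rule (40 higher, 38 lower) and in the band (44 and 39) moved under these settings. Astrocytes with 0 Rorb and 0 Cux2 counts gave 6 higher by the rule and 16 in the band. Lower genes by the rule numbered 23 by a 1.2-fold test. Against the deep side they numbered 21 (band 6), against the upper side 16 (band 18), and without Gfap of 3 or more 17 (band 11). Leaving out 1 coverslip gave 30 to 38 higher and 24 to 38 lower by the rule. Against OPC the rule counts were 19 and 5 with TMM, 24 and 4 with library totals, 0 and 0 with 0 Rorb and Cux2, and 1 to 8 and 5 to 31 without 1 coverslip; band counts were 18 and 11, 20 and 12, 6 and 2, and 3 to 13 and 12 to 16. Against microglia, TMM gave 22 and 8 by the rule, 0 Rorb and Cux2 gave 0 and 1 (band 4 and 6), and leaving out 1 coverslip 2 to 5 and 7 to 13 (band 11 to 17 and 13 to 17). After subtraction by Rorb or by Cux2, 5 and 5 rule genes and 8 and 9 band genes stayed higher on 4 of 4 coverslips. Total counts moved the median log2 of all genes to -0.11 by the rule and -0.05 in the band.

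Directions turned as follows (log2). With 0 Rorb and Cux2: by the rule Sdc1 -0.58, Gpc1 -0.065, Wnt9a -0.65, Prkce -0.12, Sox9 0.16, Sox2 0.28, Slc9a3r1 0.17; band Meg3 -1.64, Frzb -0.50, Aldh1l1 0.58, Apoe 0.067, Wnt9a -1.13. Against the deep side: by the rule Prkce -0.080, Wnt4 0.16, Cldn5 0.045, Adgra2 0.43, Col4a6 0.28, Tmem119 0.14, Glul -0.019, Gpc4 -0.085; band Mrc1 0.14, Wnt4 0.051, Adgra2 0.57, Cldn5 0.38, Trabd2b 0.53, Col4a6 0.59, Lyve1 0.60, Wnt5a 0.23, Tmem119 0.032, Sox9 -0.18, Vim 0.33, Id1 0.11, Sox2 -0.048. Against the upper side: Gpc6 -0.080 (rule), Sox2 -0.013 (band, and -0.012 with library totals). With outside astrocytes near dense neurons (rule): Sox9 0.16, Aldoc 0.16, Sox2 0.14, Gpc6 -0.041. Without Gfap of 3 or more: Adgra2 0.033, Col4a6 0.15, Id1 0.51 (rule), Id1 0.052 (band). After subtraction by Rorb: by the rule Sdc1 -0.75, Apc -0.12, Fzd3 -0.35, Tcf4 -0.28, Nlgn2 -0.49, Apc2 -0.21, Gpc1 -1.55, Gpc5 -0.49, Wnt9a -1.93, Prkce -0.62, Gpc4 -0.018, Gpc6 -0.17; band Gpc5 -0.13, Cx3cl1 -3.15, Fzd3 -0.36, Tcf4 -0.27, Gpc1 -1.66, Nlgn2 -0.47, Prkce -0.48, Gsk3b -0.26, Gpc4 -0.043, Wnt9a -2.23. The cause was not tested.

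Per section (n = 8, exact permutation test; sections of a coverslip are not independent, so these p-values are too small), the share of astrocytes differed by 2.51 points (p = 0.0078, rule) and 1.32 (p = 0.023, band), and volume by -53.3 (p = 0.039) and -75.7 (p = 0.016); with a radius of 50 units the share differed by 3.25 points. Gene counts per astrocyte differed by 5.20 by the rule, and by -2.75 to 13.2 with 1 coverslip left out, the lowest without coverslip 4. The log2 of Rorb per astrocyte went from 2.33 to 1.78 with no neuron within 15 units, and that of Cux2 from 2.79 to 2.29, or 2.87 per volume. Inside and outside were paired by coverslip in every main test. Genes not above the blanks on a side have no measured fold at this depth.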

Other observations

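Between the inside and the outside class lay 9345 astrocytes with 1 to 7 layer 4 neurons within 75 units, and 34714 lay farther than 300 units from any layer 4 neuron; neither group entered a test. Astrocytes of the central patches held 2.96 ± 1.05 counts of Vim and 0.738 ± 0.440 of Gfap, against 1.80 ± 0.796 and 1.65 ± 0.280 in the band. They held 2.78 ± 0.793 counts of Rorb and 0.879 ± 0.0946 of Cux2, fewer than the 7.89 ± 2.38 and 5.51 ± 1.71 of band astrocytes.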
